A study of Mus musculus with 12 samples.

Results

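The interleukin-1 (IL-1) family was examined in whole mouse skin through 10 genes chosen by name, namely the ligands Il1a, Il1b, Il1f6 and Il1f9, the receptor antagonist Il1rn, the receptors Il1r1 and Il1r2, the shared receptor chain Il1rap, and the ligand and receptor pair Il33 and Il1rl1. All 10 were among the 52636 genes of the count table, and all 10 were among the 17993 genes that passed the filter on low counts. Il1f6 and Il1f9 are called Il36a and Il36g in newer annotation. Skin RNA was sequenced from BALB/c mice in 4 groups of 3 libraries each. Control mice received intradermal vehicle, and LL37 mice received intradermal LL37, the active peptide of human cathelicidin, which gives rosacea-like inflammation in this model. Control + RAPA and LL37 + RAPA mice were also given RAPA (rapamycin), which blocks mTORC1 signalling. The study describes the control and LL37 mice of its comparisons as given vehicle in place of RAPA. In the methods of the study, the model is described in 8-week-old female BALB/c mice, with 40 μl of LL37 at 320 μM or vehicle injected into shaved back skin 2 times a day for 2 days, and RAPA is given intraperitoneally at 4 mg/kg per day. The labels give strain, tissue and treatment, and neither age nor the RAPA route is stated there for the sequenced mice. Acute injection of a human peptide into mouse skin limits the groups as a model of a chronic disease.

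IL-1α and IL-1β, the products of Il1a and Il1b, signal through the receptor encoded by Il1r1 together with the accessory chain encoded by Il1rap, and the adaptor MyD88 carries the signal to NF-κB and MAP kinases. The antagonist encoded by Il1rn occupies the same receptor without signalling, and the protein encoded by Il1r2 binds IL-1 as a decoy. The IL-36 cytokines and IL-33 use receptors of their own, Il1rl2 and Il1rl1, with the same accessory chain. In skin, keratinocytes hold stores of IL-1α, IL-36 cytokines are products of the epidermis, IL-33 is released as an alarm signal by damaged barrier cells, and IL-1β is made mainly by myeloid cells as a precursor that caspase-1 cleaves.

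By position, 5 of the 10 genes lie on chromosome 2 of GRCm38 and 3 lie on chromosome 1. On the plus strand of chromosome 2, Il1f9 spans 24186476 to 24193568, Il1f6 spans 24215418 to 24225702 and Il1rn spans 24336853 to 24351494. On the minus strand, Il1a spans 129299610 to 129309972 and Il1b spans 129364570 to 129371139. The receptor genes Il1r2, Il1r1 and Il1rl1 span 40074079 to 40125231, 40225080 to 40317257 and 40429570 to 40465415 on the plus strand of chromosome 1. Il1rap lies on chromosome 16 from 26581704 to 26730117, and Il33 lies on chromosome 19 from 29925114 to 29960718. All 10 are protein-coding genes in GENCODE M21. Exons of Il1a, Il1b and Il1rap overlap those of Gm14023, Il1bos and Gm20319 on the opposite strand, and the strand setting of the counting is not given in the sources used here, so reads of these pairs cannot be told apart.

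Promoter windows reaching from upstream of an annotated start to just past it were taken from RefSeq on GRCm38.p6 for 9 of the 10 genes, and no window was at hand for Il1f6. The windows below are shown because Il1a and Il1b were the agonists of the IL-1 receptor, Il1rn was their antagonist, Il33 had the largest fold change after Il1b in LL37 skin, and Il1r1 was the gene still called in LL37 + RAPA skin. Capitals mark a TATA box (TATAAA), an AP-1 motif (TGANTCA) or an NF-κB consensus, searched on both strands, and each window is written 5′ to 3′ on the strand of its gene.
Il1a, chr2:129309923-129310222, minus strand: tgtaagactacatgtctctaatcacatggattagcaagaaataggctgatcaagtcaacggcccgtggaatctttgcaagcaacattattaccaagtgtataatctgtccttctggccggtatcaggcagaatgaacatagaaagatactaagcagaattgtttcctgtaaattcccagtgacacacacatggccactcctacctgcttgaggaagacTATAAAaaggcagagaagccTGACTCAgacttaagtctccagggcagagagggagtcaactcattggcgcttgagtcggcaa
Il1b, chr2:129371090-129371389, minus strand: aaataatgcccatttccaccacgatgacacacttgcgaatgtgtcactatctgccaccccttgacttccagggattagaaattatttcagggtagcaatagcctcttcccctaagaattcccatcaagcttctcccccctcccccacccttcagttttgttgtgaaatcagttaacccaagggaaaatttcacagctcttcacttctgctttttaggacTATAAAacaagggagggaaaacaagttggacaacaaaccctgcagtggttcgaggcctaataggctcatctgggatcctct
Il1rn, chr2:24336610-24336909, plus strand: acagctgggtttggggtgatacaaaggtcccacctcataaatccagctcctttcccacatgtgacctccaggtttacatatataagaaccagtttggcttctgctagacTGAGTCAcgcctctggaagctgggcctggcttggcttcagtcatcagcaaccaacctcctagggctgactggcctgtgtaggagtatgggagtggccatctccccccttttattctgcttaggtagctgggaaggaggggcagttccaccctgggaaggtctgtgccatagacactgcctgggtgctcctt
Il33, chr19:29945540-29945839, plus strand: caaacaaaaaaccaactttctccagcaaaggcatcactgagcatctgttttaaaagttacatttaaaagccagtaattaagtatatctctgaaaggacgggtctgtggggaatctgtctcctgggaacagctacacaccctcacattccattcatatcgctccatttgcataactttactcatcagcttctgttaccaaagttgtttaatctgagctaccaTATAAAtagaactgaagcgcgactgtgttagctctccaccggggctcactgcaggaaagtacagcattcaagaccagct
Il1r1, chr1:40266336-40266635, plus strand: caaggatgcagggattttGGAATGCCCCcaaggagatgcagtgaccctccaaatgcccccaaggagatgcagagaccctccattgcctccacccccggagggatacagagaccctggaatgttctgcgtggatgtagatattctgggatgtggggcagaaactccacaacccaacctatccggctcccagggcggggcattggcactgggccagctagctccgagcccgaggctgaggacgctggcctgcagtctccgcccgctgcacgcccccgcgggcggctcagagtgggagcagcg

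Il33 and Il1r1 have 2 windows each in the table and Il1rn has 3, and the one shown for each was chosen after the motifs were seen. In the windows shown, the TATA box stood 32 bases before the start of Il1a, 31 before that of Il1b and 29 before that of Il33. The other Il33 window held one 203 bases before its start, and another Il1rn window held one past its start. Of 32851 promoter windows of the same length, 13.6% held this motif. Il1a also held an AP-1 motif 12 bases before the start, and Il1rn held one 141 bases before its start. AP-1 motifs were present in 7.81% of all windows. The NF-κB consensus was found in 1 window of 1 of these genes, 232 bases before a start of Il1r1 that lies inside the gene, as does the start shown for Il33, and 8.46% of all windows held it. The broader C/EBP motif (TTNNGNAA, not in capitals), which overlaps the NF-κB match in Il1r1, was present in 40.7% of all windows, among them that of Il1b at 91 bases before the start. The windows of Il1f9, Il1r2 and Il1rap held none of the 4 motifs. These matches describe letters in a short window and were not tested for binding.

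The count table held from 15734559 to 23271784 reads in each library, and 3 counts correspond to between 0.123 and 0.184 CPM (counts scaled to one effective library size), so all 10 genes were above that level in every library. Keratinocyte markers summed to between 32313 and 50040 CPM over the 12 libraries, so the main cell type of skin was present in every library. The libraries differed in cell makeup along with the groups. Skeletal muscle markers summed to between 34308 and 64189 CPM in both control groups, between 2806 and 6172 CPM in LL37 + RAPA skin and between 18.8 and 715 CPM in LL37 skin. Neutrophil markers summed to between 11.5 and 82.2 CPM in both control groups, between 106 and 408 CPM in LL37 + RAPA skin, and to 1970, 2677 and 281 CPM in the 3 LL37 libraries. LL37 replicate 3 stood apart from the other LL37 libraries in these markers and in several genes below. In whole skin, more cells of one type and more RNA per cell cannot be told apart. The study describes the samples of a group as biologically independent, and the labels name no litter, batch or day.

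The first question was which members of the family changed with LL37. With LL37, 8 of the 10 genes were called higher than in control and 0 lower, where a call needs a Benjamini-Hochberg adjusted p under 0.05 in edgeR's quasi-likelihood test and an absolute log2 fold change above 1. Over all 17993 genes tested, 19.5% were called, with 8.73% higher and 10.8% lower. The 8 genes were Il1a, Il1b, Il1rn, Il1f9, Il1r1, Il1r2, Il1rap and Il33. The median log2 fold change of the 10 genes was 1.27, and the median over all genes tested was near 0. In 6 of the 10, every LL37 library was above every control library, against 23.8% of all genes. The largest value was that of Il1b at 4.62, followed by Il33 at 2.20 and Il1rn at 1.68.

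**Figure D1:**
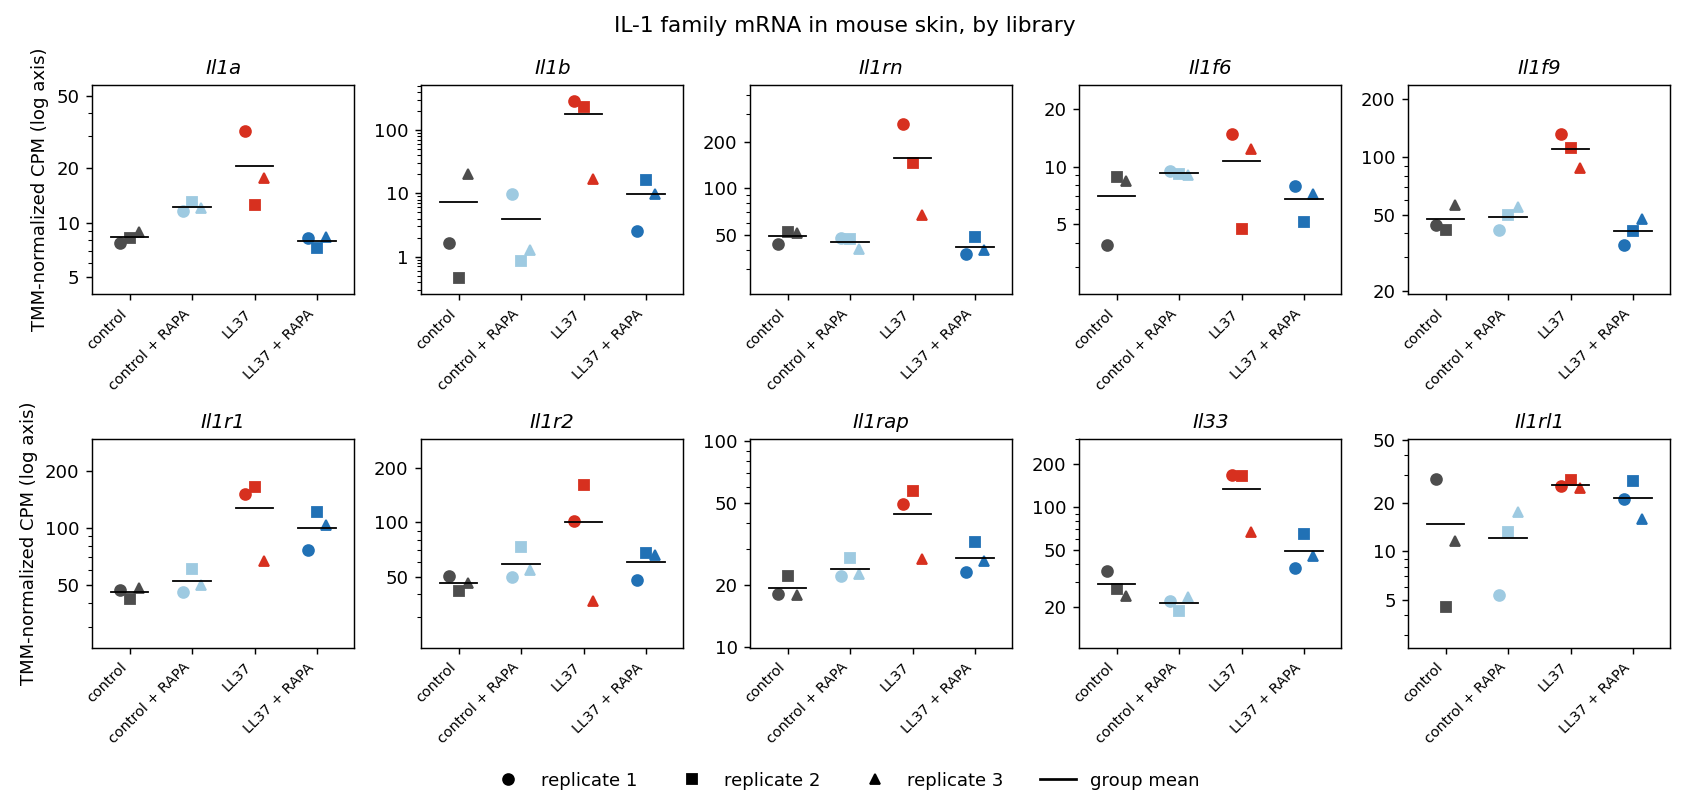
TMM-normalized CPM of the 10 genes in every library, on a log axis that differs between panels, with symbols for the replicate number and a line at the group mean. In LL37 skin, Il1b reached 289 and 236 CPM in replicates 1 and 2 and 17.0 CPM in replicate 3, while all 3 LL37 libraries of Il1f9 lay above the other 9 libraries.

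Il1a, which encodes the IL-1α that keratinocytes store, stood at 7.71, 8.25 and 8.90 CPM in the 3 control libraries and at 31.8, 12.4 and 17.6 CPM in the LL37 libraries. It was at 8.21, 7.29 and 8.38 CPM in LL37 + RAPA skin and at 11.6, 13.04 and 11.97 CPM in control + RAPA skin. Every LL37 library was above every control and LL37 + RAPA library, although LL37 replicate 2 fell inside the range of control + RAPA skin. Il1a rose by a log2 fold change of 1.31 ± 0.27 (SE) against control (edgeR adjusted p = 0.00221) and was higher by 1.37 ± 0.27 than in LL37 + RAPA skin (edgeR adjusted p = 0.00521). Without LL37 replicate 1 these values were 0.86 and 0.92, under the fold limit, with edgeR adjusted p of 0.00300 and 0.00902.

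Il1b, the main secreted IL-1 of myeloid cells, stood at 1.62, 0.461 and 19.97 CPM in control libraries and at 289, 236 and 17.0 CPM in LL37 libraries. It stood at 2.56, 16.6 and 9.69 CPM in LL37 + RAPA libraries and at 9.87, 0.840 and 1.27 CPM in control + RAPA libraries. The LL37 and control groups overlapped, since LL37 replicate 3 was below control replicate 3. Il1b rose by 4.62 ± 1.35 against control (edgeR adjusted p = 0.0167) and was higher by 4.22 ± 1.31 than in LL37 + RAPA skin (edgeR adjusted p = 0.0372). Both values rested on few libraries. Against control the value lay between 4.04 without control replicate 2 and 7.43 without control replicate 3. The call against control was lost without control replicate 1 (edgeR adjusted p = 0.0612), and the call against LL37 + RAPA was lost when any of 5 of the 6 libraries was left out, with edgeR adjusted p between 0.0675 and 0.125. With only LL37 and control libraries in the fit, the adjusted p against control was 0.0513.

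Neutrophil markers were highest in the libraries with the highest Il1b. In LL37 replicates 1 and 2, where Il1b was at 289 and 236 CPM, these markers summed to 1970 and 2677 CPM. In LL37 replicate 3 they summed to 281 CPM, and in control replicate 3, the control library with the highest Il1b, to 82.2 CPM against 24.0 and 11.5 CPM in the other control libraries. The order did not hold throughout, since the LL37 + RAPA libraries, with marker sums of 106, 408 and 399 CPM, and LL37 replicate 3 had less Il1b than control replicate 3. Of the 12 neutrophil markers, 10 were tested. With LL37, 9 were called higher than in control and 3 higher than in LL37 + RAPA skin, beside 8.73% and 4.33% of all genes. Camp, also on this list, changed little, at 0.431, 0.564 and 0 CPM in control skin and 0.762, 0.552 and 0 CPM in LL37 skin. S100a9, which encodes a calprotectin subunit, was at 767, 1100 and 91.9 CPM in LL37 skin and at 4.10, 2.46 and 28.6 CPM in control skin. S100a8 was at 469, 686 and 55.4 CPM in LL37 skin. In LL37 replicates 1 and 2, S100a9 and S100a8 took the largest parts of the marker sum. Cxcr2, the receptor by which neutrophils sense CXC chemokines, was at 204, 210 and 34.2 CPM in LL37 skin. Monocyte and macrophage markers summed to between 2225 and 3055 CPM in LL37 skin, between 1881 and 3233 CPM in LL37 + RAPA skin and between 785 and 1327 CPM in both control groups. The part of these cells in the level of Il1b was not tested.

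**Figure D2:**
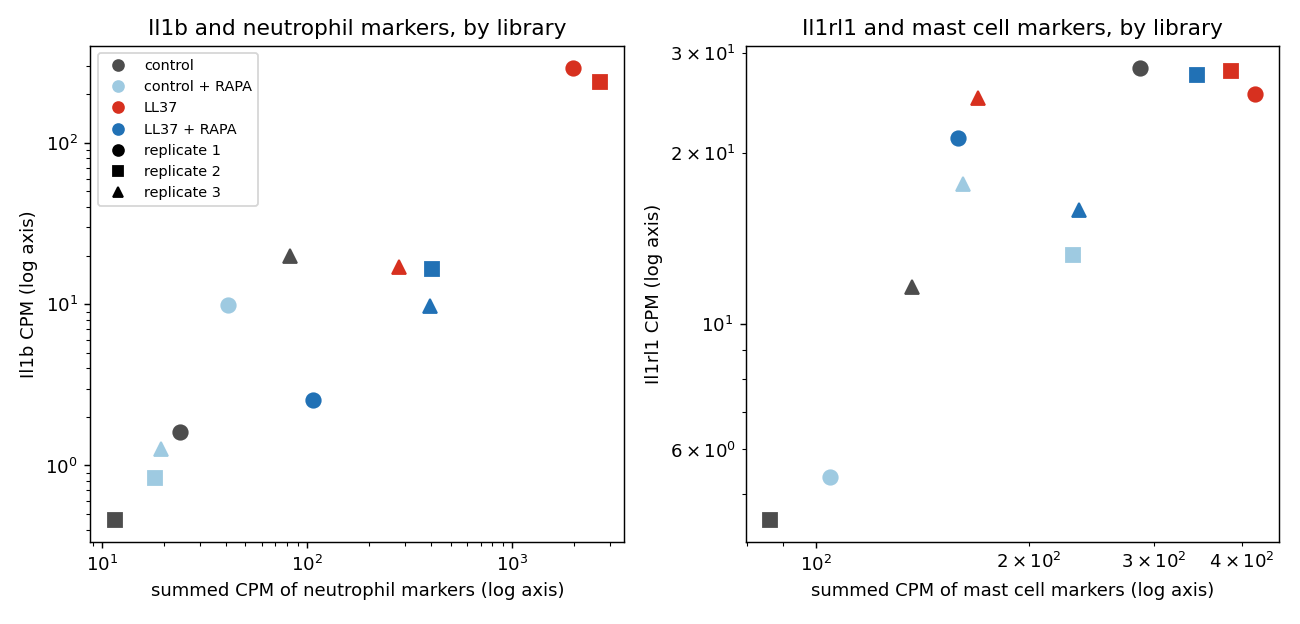
Left, CPM of Il1b against the summed CPM of 12 neutrophil markers, and right, CPM of Il1rl1 against the summed CPM of 9 mast cell markers, 1 point per library on log axes, with colours for groups and symbols for replicate numbers. LL37 replicates 1 and 2 stand alone at the upper right for Il1b, and the 2 libraries lowest in mast cell markers, at 86.1 and 105 CPM, are the lowest in Il1rl1.

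Il1rn, the antagonist of the IL-1 receptor, rose together with the agonists. It stood at 43.4, 52.4 and 51.2 CPM in control libraries, at 258, 146 and 67.1 CPM in LL37 libraries and at 37.4, 48.6 and 40.03 CPM in LL37 + RAPA libraries. Every LL37 library was above every library of the other groups, and LL37 replicate 3 was the lowest of the 3. The log2 fold change was 1.68 ± 0.35 against control (edgeR adjusted p = 0.00255) and 1.90 ± 0.35 against LL37 + RAPA (edgeR adjusted p = 0.00426). Gene counts do not separate the secreted from the intracellular forms of the antagonist.

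Of the IL-36 ligands of the epidermis, Il1f9 was called and Il1f6 was not, and the difference between them was not tested. Il1f9 (IL-36γ) stood at 44.4, 41.5 and 56.5 CPM in control libraries, at 132, 112 and 87.8 CPM in LL37 libraries and at 34.7, 41.0 and 47.2 CPM in LL37 + RAPA libraries. It had the smallest standard error of the 10 genes, with a rise of 1.22 ± 0.18 against control (edgeR adjusted p = 0.000286) and a difference of 1.43 ± 0.18 from LL37 + RAPA (edgeR adjusted p = 0.00124). Both calls held whichever library of the compared groups was left out, with log2 fold changes between 1.07 and 1.39 and between 1.28 and 1.57. Il1f6 (IL-36α) stood at 3.88, 8.82 and 8.43 CPM in control libraries and at 14.9, 4.72 and 12.4 CPM in LL37 libraries, which overlapped. Its log2 fold change was 0.60 ± 0.38 against control (edgeR adjusted p = 0.229) and 0.67 ± 0.38 against LL37 + RAPA (edgeR adjusted p = 0.219), neither past the threshold. Both values moved with single libraries, to 0.29 and 0.36 without LL37 replicate 1, and to 0.99 (edgeR adjusted p = 0.0249) and 1.02 (edgeR adjusted p = 0.0412, a call) without LL37 replicate 2. Against control the value was 0.31 without control replicate 1. The 5 markers of stressed keratinocytes, such as Krt6a and Krt16, were also highest in LL37 skin as a sum. They summed to between 6872 and 11492 CPM there and between 1344 and 3161 CPM in the other 3 groups. In control + RAPA against control skin, Il1f9 was at 0.04 and the median log2 fold change of the 5 markers was −1.12, with 0 called. Their sum showed no such fall, at 2169 to 2364 CPM in control + RAPA and 1344 to 2738 CPM in control skin. The part of stressed keratinocytes in the level of Il1f9 was not tested.

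Il1r1, the signalling receptor for IL-1α and IL-1β, was called higher than control both with LL37 and with LL37 + RAPA. It stood at 46.8, 41.9 and 48.2 CPM in control libraries, at 150.3, 164 and 67.1 CPM in LL37 libraries, at 75.8, 121 and 103 CPM in LL37 + RAPA libraries and at 45.7, 60.4 and 49.9 CPM in control + RAPA libraries. Both LL37-injected groups lay above both groups without LL37, and they overlapped each other. Il1r1 rose by 1.48 ± 0.28 in LL37 skin (edgeR adjusted p = 0.00149) and by 1.13 ± 0.28 in LL37 + RAPA skin against control (edgeR adjusted p = 0.0190). LL37 and LL37 + RAPA skin differed by 0.35 ± 0.27 (edgeR adjusted p = 0.379), with values from 0.13 without LL37 replicate 2 to 0.65 without LL37 replicate 3 (edgeR adjusted p = 0.0110). The call in LL37 + RAPA skin was lost when any of 5 of the 6 libraries was left out, with log2 fold changes between 0.97 and 1.17 and edgeR adjusted p between 0.0501 and 0.0868.

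Il1rap, the chain that IL-1, IL-36 and IL-33 receptors share, stood at 18.0, 22.0 and 17.8 CPM in control libraries, at 49.3, 57.2 and 26.7 CPM in LL37 libraries and at 23.0, 32.2 and 26.2 CPM in LL37 + RAPA libraries. It rose by 1.20 ± 0.24 against control (edgeR adjusted p = 0.00195). Against LL37 + RAPA it was higher by 0.71 ± 0.24 with an edgeR adjusted p of 0.0479, under the fold limit, and LL37 replicate 3 lay inside the range of LL37 + RAPA skin. Il1r2, the decoy receptor, stood at 50.3, 41.7 and 45.9 CPM in control libraries and at 102, 162 and 36.5 CPM in LL37 libraries. LL37 replicate 3 was thus below all 3 control libraries. The rise of 1.12 ± 0.39 (edgeR adjusted p = 0.0363) was lost when any of 5 of the 6 libraries was left out, with a value of 0.62 without LL37 replicate 2, and without LL37 replicate 3 it was 1.55 (edgeR adjusted p = 0.000125). In LL37 + RAPA skin Il1r2 stood at 47.8, 67.6 and 66.2 CPM, and LL37 skin differed from it by 0.72 ± 0.38 (edgeR adjusted p = 0.192). Without LL37 replicate 3 that difference was 1.12 (edgeR adjusted p = 0.00202), and without LL37 replicate 2 it was 0.20 (edgeR adjusted p = 0.730).

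Il33, the alarm cytokine of barrier cells, stood at 36.0, 26.8 and 23.8 CPM in control libraries and at 167, 165 and 66.4 CPM in LL37 libraries. It stood at 37.2, 65.2 and 45.8 CPM in LL37 + RAPA libraries and at 22.0, 18.7 and 23.6 CPM in control + RAPA libraries. The groups fell in order, with LL37 libraries above all others, LL37 + RAPA next and both control groups below. The rise against control was 2.20 ± 0.33 (edgeR adjusted p = 0.000323), and LL37 skin was higher than LL37 + RAPA skin by 1.43 ± 0.32 (edgeR adjusted p = 0.00923). Both calls held with any library of the compared groups left out. LL37 + RAPA and control skin differed by 0.78 ± 0.32 (edgeR adjusted p = 0.136), which did not pass the threshold.

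Il1rl1, which encodes the IL-33 receptor ST2, stood at 28.2, 4.51 and 11.6 CPM in control libraries and at 25.5, 27.9 and 25.1 CPM in LL37 libraries. Control replicate 1 was above all LL37 libraries, so the groups overlapped. The log2 fold change was 0.82 ± 0.53 (edgeR adjusted p = 0.237), which became 1.69 without control replicate 1 (edgeR adjusted p = 0.0205) and 0.37 without control replicate 2 (edgeR adjusted p = 0.553). Il1rl1 was at 21.3, 27.5 and 15.9 CPM in LL37 + RAPA skin and at 5.37, 13.2 and 17.6 CPM in control + RAPA skin. The 9 mast cell markers also varied among control libraries, summing to 287, 86.1 and 137 CPM in control replicates 1 to 3. The protease Cpa3 was at 18.6, 5.54 and 8.75 CPM and Mcpt4 at 66.3, 21.4 and 34.1 CPM in these libraries, while the IgE receptor chain Fcer1a was lowest in replicate 1, at 0.216, 0.718 and 0.843 CPM, and Hdc was highest in replicate 3, at 9.44, 4.67 and 16.0 CPM. In LL37 skin the markers summed to 417, 386 and 169 CPM, of which Hdc, the enzyme that makes histamine, took 280, 265 and 17.9 CPM. The part of mast cells in the level of Il1rl1 was not tested, and counts per gene do not separate the membrane from the soluble form of ST2.

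Compared per length, as TPM (counts divided by exon length and scaled to one total per library), the order of the genes differed between groups. In control skin the highest means were those of Il1f9 at 78.9 ± 14.6 (SD, n = 3) and Il1r2 at 65.8 ± 6.9 TPM. The lowest means were those of Il1rl1 at 5.88 ± 4.85 and Il1rap at 4.62 ± 0.48 TPM. Il1b had a mean of 10.7 ± 16.0 TPM, with 2.33, 0.648 and 29.1 TPM in control replicates 1, 2 and 3. It was thus the lowest of the members in control replicates 1 and 2, and its mean rested on control replicate 3. Il33, Il1rn, Il1f6 and Il1r1 had means between 19.6 and 27.3 TPM in control skin, where every Il1rn and Il33 library was above every Il1r1 library and the libraries of Il33, Il1rn and Il1f6 overlapped. In LL37 skin Il1b had the highest mean at 268 ± 212 TPM, followed by Il1f9 at 193 ± 32, Il1r2 at 149.6 ± 91.9 and Il33 at 132 ± 54 TPM, and these neighbours did not differ beyond their spread. In LL37 + RAPA skin Il1r2 at 95.9 ± 18.5, Il1f9 at 75.1 ± 12.3, Il33 at 51.7 ± 15.4 and Il1r1 at 47.4 ± 11.2 TPM were the highest, and Il1b stood at 15.3 ± 11.2 TPM.

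The second question was how RAPA changed the LL37 response. Of the 10 genes, 5 were called higher in LL37 than in LL37 + RAPA skin, namely Il1a, Il1b, Il1rn, Il1f9 and Il33, and 0 were called lower. Over all genes tested, 10.1% were called and 4.33% were called higher. These are ligands and the antagonist. The receptor genes Il1r1, Il1r2, Il1rap and Il1rl1 and the ligand Il1f6 did not pass both limits, although Il1rap passed the one on adjusted p. Without LL37 replicate 3, Il1r2 was called as well, in a fit that called 2727 of all 18396 genes. Whether ligands and receptors differed in their response to RAPA was not tested. In 5 of the 10, all LL37 libraries lay above all LL37 + RAPA libraries, against 17.6% of all genes. For Il1b and Il33 the gap was narrow. Their lowest LL37 libraries were at 17.0 and 66.4 CPM, and their highest LL37 + RAPA libraries at 16.6 and 65.2 CPM. Without LL37 replicate 1, 3 members were called, which were Il1rn, Il1f9 and Il33. That fit called 1104 of all 18403 genes, against 1823 of 17993 with all libraries. Both comparisons use the same LL37 libraries.

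**Figure D3:**
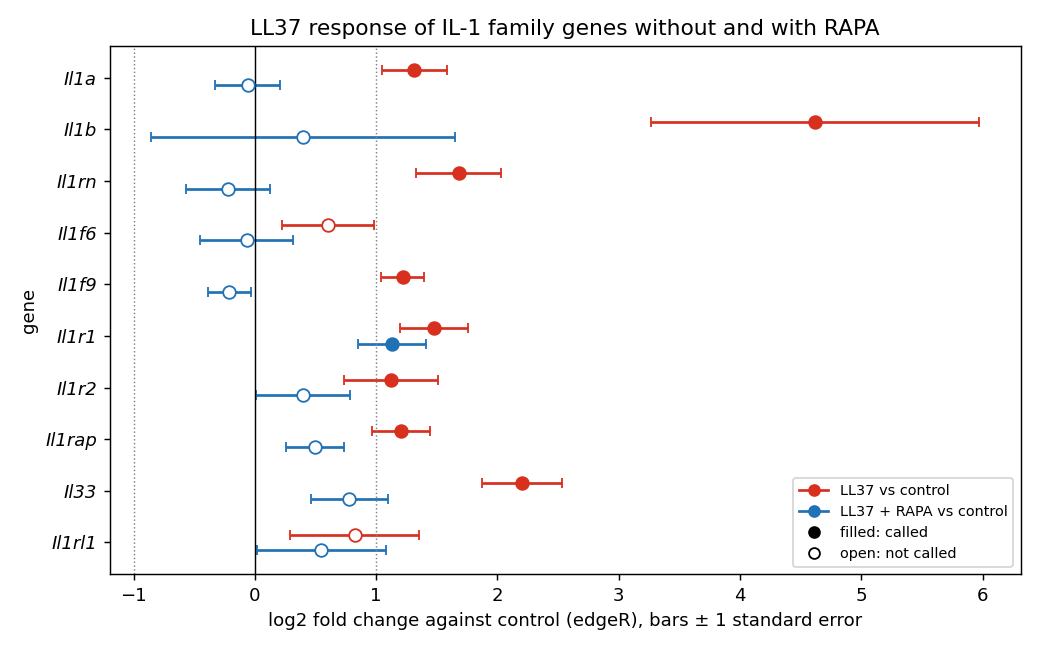
Log2 fold change against control of the 10 genes in LL37 skin (red) and LL37 + RAPA skin (blue), from edgeR, with bars of 1 standard error and dotted lines at the fold limit of 1. Filled points were called, 8 in LL37 skin and Il1r1 alone in LL37 + RAPA skin. The control libraries are shared by both sets of points.

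Against control skin, LL37 + RAPA skin had 1 call among the 10 genes, Il1r1, where 6.49% of all genes were called and 2.15% were called higher. All 3 libraries were above control for Il1r1, Il1rap and Il33, as for 16.9% of all genes. Il1a, Il1rn, Il1f6 and Il1f9 had log2 fold changes between −0.22 and −0.06. Il1b was at 0.40 ± 1.25 (edgeR adjusted p = 0.883), with a standard error that leaves room for a large change in either direction. Il1rap was at 0.50 ± 0.24 (edgeR adjusted p = 0.204). With RAPA on both sides, LL37 + RAPA against control + RAPA gave 1 call, Il33 at 1.20 ± 0.32 (edgeR adjusted p = 0.0222), beside 8.39% of all genes called and 4.07% called higher. Il1r1 in that comparison was at 0.94 ± 0.28 with an edgeR adjusted p of 0.0347, under the fold limit, and with no fold limit these 2 genes were called beside 18.6% of all genes. The Il33 call was lost without LL37 + RAPA replicate 2, control + RAPA replicate 1 or control + RAPA replicate 2, each of which left 0 members called. Over all genes, these fits called 1074, 1168 and 1214, against 1510 with all libraries. Every LL37 + RAPA library was below every control + RAPA library for Il1a and Il1f6, and above for Il1r1 and Il33. Il1a stood at −0.62 ± 0.27 (edgeR adjusted p = 0.138) between these 2 groups. The share of all genes without overlap was not computed for LL37 + RAPA against control + RAPA, so the lack of overlap cannot be set against a background.

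In skin without LL37, RAPA gave 0 calls among the 10 genes and 0% of all genes with edgeR, where 1556 genes (8.65%), 0 of them members, had an unadjusted p under 0.05 and DESeq2 called 52 genes, none of them a member. The largest positive value among members was that of Il1a at 0.56 ± 0.27 (edgeR adjusted p = 0.599), and the largest negative value was that of Il1b at −0.88 ± 1.34 (edgeR adjusted p = 0.899). Every control + RAPA library was above every control library for Il1a, Il1f6 and Il1rap, and below for Il33. The share of all genes without overlap was not computed for this comparison, so the lack of overlap in these genes cannot be set against a background.

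The interaction, which is the RAPA effect in LL37 skin minus that in control skin, was called for 2 of the 10 genes, both negative, against 2.38% of all genes called, 0.65% called lower and 1.73% called higher. Il1a had an interaction of −1.93 ± 0.38 (edgeR adjusted p = 0.0279) and Il1f9 one of −1.47 ± 0.25 (edgeR adjusted p = 0.0223). Il1rn stood at −1.78 ± 0.49 (edgeR adjusted p = 0.0663), Il1rap at −1.02 ± 0.33 (edgeR adjusted p = 0.108) and Il33 at −0.999 ± 0.448 (edgeR adjusted p = 0.214). Il1b had the largest size at −3.34 ± 1.82 (edgeR adjusted p = 0.304), and Il1r1 stood at −0.54 ± 0.39 (edgeR adjusted p = 0.446). The number of members called ranged from 0 to 6 as single libraries were left out. It was 0 without control replicate 1, LL37 + RAPA replicate 1 or control + RAPA replicate 3, and 1 without control replicate 3, LL37 + RAPA replicate 2 or 3, or control + RAPA replicate 1 or 2. Without LL37 replicate 3 it was 6, adding Il1rn, Il1r2, Il1rap and Il33. The number called over all genes moved as well. It was 1760 of 18396 without LL37 replicate 3, against 429 of 17993 with all libraries. Without control replicate 1, LL37 + RAPA replicate 1 or control + RAPA replicate 3 it was 23, 2 and 17.

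Ratios within a library do not depend on library scaling. The log2 ratio of Il1rn to Il1b counts, with 0.5 added to each, was 4.72, 6.75 and 1.36 in control libraries and −0.16, −0.69 and 1.98 in LL37 libraries. It was 3.85, 1.55 and 2.04 in LL37 + RAPA libraries. The LL37 mean of 0.38 differed from that of control by −3.90 (two-sided exact permutation test, p = 0.2) and from that of LL37 + RAPA by −2.11 (exact permutation test, p = 0.2). With 3 against 3 the smallest p is 0.1, so this design cannot reach 0.05. The log2 ratio of the decoy Il1r2 to the signalling receptor Il1r1 was 0.10, −0.01 and −0.07 in control, 0.12, 0.28 and 0.12 in control + RAPA, −0.56, −0.02 and −0.88 in LL37 and −0.66, −0.84 and −0.64 in LL37 + RAPA libraries. All 3 LL37 + RAPA libraries were below all libraries of both control groups, while LL37 replicate 2 lay inside the control range. LL37 differed from control by −0.50 (exact permutation test, p = 0.2) and from LL37 + RAPA by 0.23 (exact permutation test, p = 0.5). The ratio of Il1rn to Il1a differed by 0.28 from control (exact permutation test, p = 0.7) and by 0.44 from LL37 + RAPA (exact permutation test, p = 0.5).

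**Figure D4:**
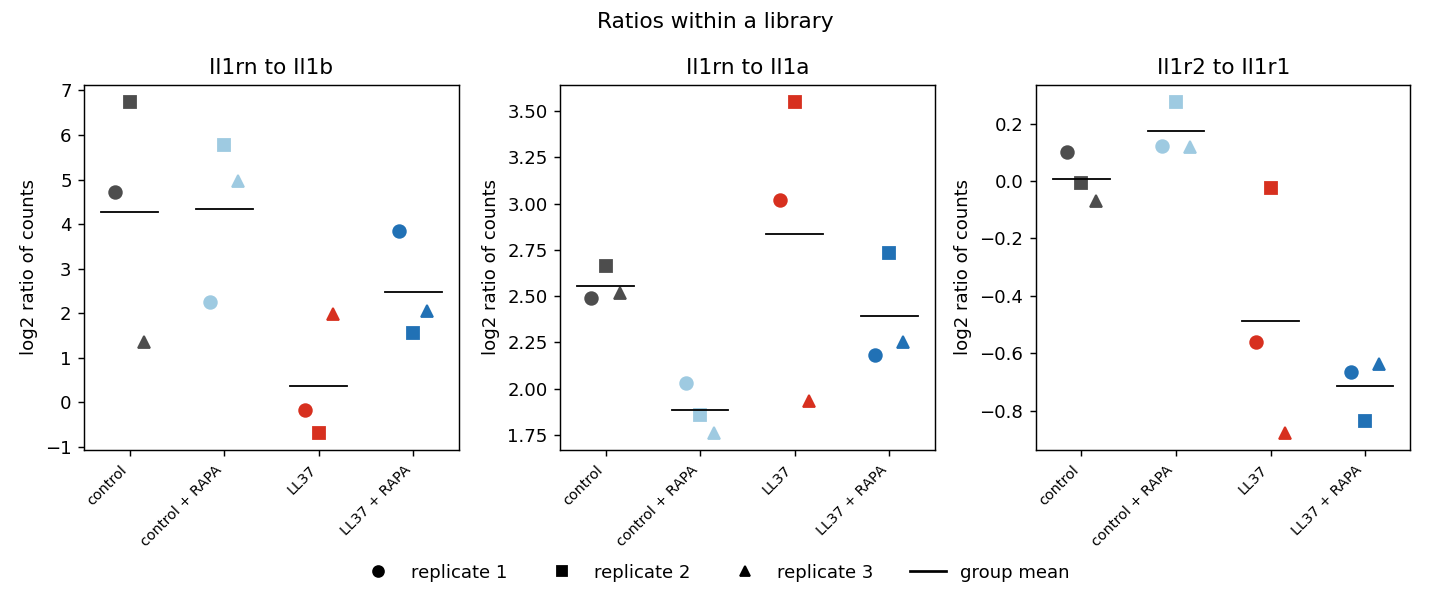
Log2 ratios of counts within each library for Il1rn to Il1b, Il1rn to Il1a and Il1r2 to Il1r1, with 0.5 added to each count, 3 libraries per group and a line at the group mean. For Il1rn to Il1b, LL37 replicates 1 and 2 lie at −0.16 and −0.69, the lowest of the 12 libraries, and for Il1r2 to Il1r1 all LL37 + RAPA libraries lie between −0.84 and −0.64.

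Of 11 other ligands and receptors of the family, 9 were tested, and Il1rapl1 and Il1rapl2 did not pass the filter. In LL37 against control skin 2 of the 9 were called higher and 0 lower, both chains of the IL-18 receptor, beside 8.73% of all genes called higher, with a median log2 fold change of 0.41 over the 9. Il18rap was at 3.61 ± 0.68 (edgeR adjusted p = 0.00137) and Il18r1 at 1.299 ± 0.36 (edgeR adjusted p = 0.0130). Il18 itself stood at 0.22 ± 0.17. Against LL37 + RAPA, 1 of 9 was called higher, beside 4.33% of all genes, the IL-18 antagonist Il18bp at 1.28 ± 0.23 (edgeR adjusted p = 0.00376). Around IL-36, the receptor Il1rl2 stood at 0.41 ± 0.09 in LL37 against control, the ligand Il1f8 (IL-36β) at 0.66 ± 0.24 and the antagonist Il1f5 at −0.07 ± 0.38. Il1f10 stood at −0.74 ± 0.22 and the negative regulator Sigirr at −0.20 ± 0.21, and neither passed both limits.

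Downstream of the receptors, 2 of 20 signalling genes were called higher with LL37 than in control and 0 lower, beside 8.73% and 10.8% of all genes, with a median of 0.16. They were Myd88, the adaptor, at 1.65 ± 0.25 (edgeR adjusted p = 0.000370) and the kinase Irak4 at 1.31 ± 0.17 (edgeR adjusted p = 0.000119). Against LL37 + RAPA, Myd88 was higher by 1.36 ± 0.25 (edgeR adjusted p = 0.00397) and Peli2, a ubiquitin ligase of this pathway, stood at −1.01 ± 0.15 (edgeR adjusted p = 0.00196).

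Among genes that process or release IL-1 proteins, 7 of 17 tested were called higher with LL37 than in control and 0 lower, beside 8.73% and 10.8% of all genes, with a median of 0.62. The largest values were those of the inflammasome sensor Nlrp3 at 4.22 ± 0.89 (edgeR adjusted p = 0.00276), the protease Mmp9 at 2.79 ± 0.55 (edgeR adjusted p = 0.00176) and the protease Ctss at 1.82 ± 0.31 (edgeR adjusted p = 0.000769). Nlrp3 lay between 8.05 and 82.6 CPM in LL37 skin and between 0.820 and 5.69 CPM in control skin. Against LL37 + RAPA, where 4.33% of all genes were called higher, 2 were called higher, Casp4 at 1.21 ± 0.32 and Ctss at 1.04 ± 0.30, and 1 lower, the neutrophil protease Prtn3 at −2.06 ± 0.44. Mmp9 was at 2.78 ± 0.55 in LL37 + RAPA against control skin (edgeR adjusted p = 0.00533).

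Of 21 tested genes that IL-1 is known to induce, 19 were called higher with LL37 than in control and 0 lower, beside 8.73% and 10.8% of all genes, with a median log2 fold change of 3.50. The largest were the chemokine genes Cxcl5 at 8.27 ± 1.06 and Cxcl3 at 6.60 ± 1.02 and the cytokine gene Il6 at 6.62 ± 1.11. Cxcl5 lay between 34.4 and 371 CPM in LL37 skin, between 8.21 and 40.8 CPM in LL37 + RAPA skin and between 0.103 and 1.56 CPM in control skin. Against LL37 + RAPA, 16 of the 21 were called higher and 0 lower, beside 4.33% of all genes called higher, led by Cxcl2 at 4.28 ± 1.36, Ptgs2, which encodes an enzyme of prostaglandin synthesis, at 4.04 ± 0.63, and Csf3, the growth factor for neutrophils, at 3.83 ± 1.03. This count fell to between 5 and 10 without LL37 replicate 1, LL37 replicate 2, LL37 + RAPA replicate 1 or LL37 + RAPA replicate 3. Other cytokines and microbial signals also induce these genes, and the counts do not single out IL-1.

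Over the 12 libraries, the genes whose log2 CPM followed Il1b most closely were Acod1 (r = 0.983), Cxcl2 (r = 0.972) and Csf3 (r = 0.967). For Il1r1 they were Steap4 (r = 0.994), the IL-17 receptor gene Il17ra (r = 0.989) and Slc39a14 (r = 0.987). Il33 was followed by Shisa5 (r = 0.993), Arpc4 (r = 0.990) and Epb41l3 (r = 0.989), and Il1a by Ptk6 (r = 0.953), 6430548M08Rik (r = 0.947) and Cldnd1 (r = 0.946). For Il1rn they were Tmco4 (r = 0.974), Csnk1a1 (r = 0.973) and Naa25 (r = 0.971), and for Il1f9 Jakmip2 (r = 0.983), Wdr91 (r = 0.975) and Sat1 (r = 0.970). Il1f6 was followed by Trex2 (r = 0.919), Esrp2 (r = 0.913) and Cers3 (r = 0.892), and Il1r2 by Dennd3 (r = 0.947), Sh2d3c (r = 0.947) and Grina (r = 0.938). Il1rap was followed by Lpcat2 (r = 0.975), Cfdp1 (r = 0.973) and Gcnt2 (r = 0.972), and among those close to Il1rl1 were Zfp53 (r = 0.921) and Cmklr1 (r = 0.915). Among the members, Il1rn and Il1f9 had r = 0.906 and Il1r1 and Il1rap r = 0.897, while Il1f6 and Il1b had r = 0.102. These correlations share the libraries and the difference between groups, and they are given as a description.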

How the data were processed

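Whole-skin RNA libraries (TruSeq, paired-end) were sequenced, 3 for each of 4 groups, and all 12 were grouped by their labels. The authors deposited raw read counts per gene without normalization. The methods of the study name HTSeq 0.6.0 for counting, whereas the submitters' processing notes list HISAT2 2.0.5, StringTie 1.3.3b, featureCounts 1.5.0-p3, DESeq2 1.16.1 and mm10, so the counter is uncertain, and the strand setting is not given in the sources used here. Gene names, positions and exon lengths came from GENCODE M21 (GRCm38), which named 52403 of 52636 genes. Depth was 15734559 to 23271784 counts per library, and floors cover counting error only.

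One model over the 12 libraries was fitted by edgeR 4.0.16 under R 4.3.3 (quasi-likelihood F-test after TMM scaling and filterByExpr), with p-values adjusted over all 17993 tested genes and calls at adjusted p under 0.05 and absolute log2 fold change above 1. Standard errors of log2 fold changes were derived from the test, as the absolute log2 fold change divided by the square root of the F statistic. CPM values are TMM-normalized, TPM values use exon length, and log2 CPM for correlations used a prior count of 2. Ratios were compared by two-sided exact permutation tests. Scripts were tested on simulated data. The named genes were the 10 members, the 3 largest called changes of each of 4 gene lists in both LL37 comparisons, the tested genes of the list of other ligands and receptors, and the 3 genes closest to each member, of which 1 is not reported here. The members and lists were chosen with earlier results of these data known. Cpa3, Mcpt4, Hdc, S100a9, Cxcr2, Camp, Krt6a and Krt16 come from the marker lists and were picked as examples. Alternatives were DESeq2 1.42.0, other normalizations, filters and limits, fits of the compared groups only, a replicate block and each library left out. Protein sequences were not analysed here.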

Additional observations from a re-analysis of the deposited data

Results flagged for a closer look

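The effect of RAPA differed between LL37 and control skin for 2 of the 10 members and 2 of 21 tested genes that IL-1 is known to induce, beside 2.38% of all genes called and 0.65% called lower, by a test of the difference itself (edgeR's quasi-likelihood test of the interaction, 3 libraries per group). Il1a had a log2 difference of −1.93 ± 0.38 (edgeR adjusted p = 0.0279) and Il1f9 one of −1.47 ± 0.25 (edgeR adjusted p = 0.0223). Ptgs2 had a log2 difference of −3.89 ± 0.89 (edgeR adjusted p = 0.0402) and Saa3, an acute-phase protein gene, one of −3.75 ± 0.90 (edgeR adjusted p = 0.0454). Neither Il1a nor Il1f9 was called without control replicate 1, LL37 + RAPA replicate 1 or control + RAPA replicate 3, and Il1a was also lost without control replicate 3, LL37 + RAPA replicate 2 or 3, or control + RAPA replicate 1 or 2. Over all genes, the fits without control replicate 1, LL37 + RAPA replicate 1 and control + RAPA replicate 3 called 23, 2 and 17. Ptgs2 and Saa3 were not fitted with libraries left out for this difference.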

How the results depend on the processing

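In LL37 against control skin, the number of members called lay between 6 and 8 as single libraries were left out, and against LL37 + RAPA it lay between 3 and 6. The ranges were 0 to 1 for LL37 + RAPA against control, 0 to 2 for LL37 + RAPA against control + RAPA, 0 to 6 for the interaction and 0 to 0 for control + RAPA against control. Over all genes, between 3006 and 4287 were called in LL37 against control skin and between 1104 and 2727 against LL37 + RAPA. For the interaction, between 2 and 1760 were called. In the lists, leaving out libraries gave between 15 and 21 IL-1-induced genes against control and between 5 and 17 against LL37 + RAPA, between 6 and 7 and between 1 and 4 processing genes, between 2 and 4 and between 1 and 2 signalling genes, and between 1 and 2 other family genes in each. With no limit on the fold change, 7668 and 4359 of all 17993 genes tested were called in these comparisons. Beside them, 11 and 7 of 17 processing genes, 12 and 8 of 20 signalling genes and 6 and 4 of 9 other family genes were called. Of the 12 signalling genes called against control, 8 were higher and 4 lower. Also with no fold limit, 2 members were called in LL37 + RAPA against control + RAPA, as with library size only. DESeq2 called 4 members for the interaction, adding Il1rn and Il1rap, where it called 1008 of all 17993 genes and edgeR called 429. In LL37 + RAPA against control skin, the sign turned with library size only for Il1a (0.068) and Il1f6 (0.057), and as libraries were left out it turned for Il1a (from −0.10 to 0.00048), Il1b (from −0.26 to 3.21) and Il1f6 (from −0.35 to 0.12). The cause was not tested. The ratio differences lay between −0.73 and −0.30 (Il1r2 to Il1r1) and between −0.081 and 0.73 (Il1rn to Il1a) against control, between −0.0068 and 0.42 and between 0.09 and 0.89 against LL37 + RAPA, and for Il1rn to Il1b between −5.36 and −2.66 and between −2.91 and −1.42. Replicate numbers were shared between groups. Correlations of deviations from the group mean lay between −0.188 and 0.263 for same-numbered libraries, of which 4 of 18 were above 0.1. For differently numbered libraries they lay between −0.303 and 0.277. With 3 libraries per group, these values cannot decide whether libraries were paired. With the replicate number as a block, 6 members were called against control, where Il1b (edgeR adjusted p = 0.0602) and Il1r2 (edgeR adjusted p = 0.0608) were not, and 4 against LL37 + RAPA, where Il1b (edgeR adjusted p = 0.0791) was not. The block changed no other count of members called. With the compared groups only, Il1r2 had an edgeR adjusted p of 0.110 against control. At 3 libraries per group, a standard error above 1 for Il1b limits what can be seen in it.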
